A study of Mus musculus with 24 samples.

Results

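The saline-treated control injury of the quadriceps muscle was compared between MRL/MpJ (MRL) and C57BL/6 (B6) mice across 14159 genes. The comparison took 6 of the 24 sequenced libraries of the study, the 3 libraries of saline-treated MRL mice and the 3 of saline-treated B6 mice, chosen by their treatment and strain labels, and every row of the deposited matrix with a gene symbol. The study removed a piece of the quadriceps in both strains (volumetric muscle loss), filled the gap with saline, decellularized extracellular matrix (ECM) or polyethylene powder (PE), or left the muscle uninjured, and collected injured muscle on day 21. Each of the 8 groups had 3 libraries of whole quadriceps, prepared from polyA-selected RNA. The mice were female C57BL/6J or MRL/MpJ animals aged 6 to 8 weeks at surgery, and neither saline-treated group received an implant. The whole muscle was sequenced, so each library mixed the wound with the surrounding muscle, and fewer cells of a type could not be told apart from less RNA per cell. The libraries were described as independent samples, and p-values measured the spread between these samples.

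MRL/MpJ is an inbred strain known for closing ear wounds with little scar and for a mild, late autoimmune disease. B6 is the strain of the mouse reference genome. The strains differ at many loci by descent, including the major histocompatibility complex, so a strain difference in injured muscle can be one that was present before the injury, one that appeared with it, or one of allele sequence. After a muscle is cut, immune cells clear the debris, satellite cells form new fibres that pass through embryonic and neonatal myosins, and fibroblasts lay down matrix.

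Levels are log2 CPM, the log2 of a gene's counts scaled to a common library total. A count of 0 stood at -3.65 in every library, and 3 counts at the mean library size stood at -2.33 (0.119 CPM), which is the level that a count of 0 allows and covers counting error only. The 8 muscle fibre markers, among them Acta1 and Ckm, summed to between 94091 and 176732 CPM in the 6 libraries, and 0 of them were called between strains. Pearson's correlation of log2 CPM across genes, which are not independent replicates, was 0.904 to 0.950 within B6, 0.947 to 0.972 within MRL and 0.879 to 0.942 between strains. All 3 MRL libraries shared 1 first sequencing index that no saline-treated B6 library carried, so that index and strain cannot be told apart in these 6 libraries. The first index also differed between the strains among the uninjured, the ECM-treated and the PE-treated mice. Only the saline-treated B6 and PE-treated MRL groups held more than 1 first index, so a term for it rests on single libraries. Replicates 1 and 2 of B6 carried a second index of a pair of which all 6 libraries in the study had Csn3, a milk casein gene, at 0.0782 to 0.439 CPM, against 36.6 to 151 CPM in the other 18.

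Limma, fitted across the 24 libraries with 1 coefficient per group, called 356 of the 14159 genes (2.51%) at a Benjamini-Hochberg adjusted p under 0.05. MRL mice had 151 of these at a higher level (1.07%) and 205 at a lower level (1.45%). Log2 fold changes are MRL minus B6. The median over all genes was 0.01, and the median absolute value of the called genes was 2.05, with the smallest at 0.44 and 293 genes at 1 or more. The 3 MRL libraries did not overlap the 3 B6 libraries for 354 of the called genes and for 15.2% of all genes. The called genes were 273 protein-coding genes, 65 annotated pseudogenes, 1 long noncoding RNA and 17 genes without an annotation. Called pseudogenes were 53 higher and 12 lower, and called protein-coding genes were 87 higher and 186 lower. In 6 genes all B6 libraries were at 0, and in another 6 all MRL libraries were. The number of calls moved to 613 without replicate 2 of B6 and to 230 without replicate 3 of MRL.

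**Figure D1:**
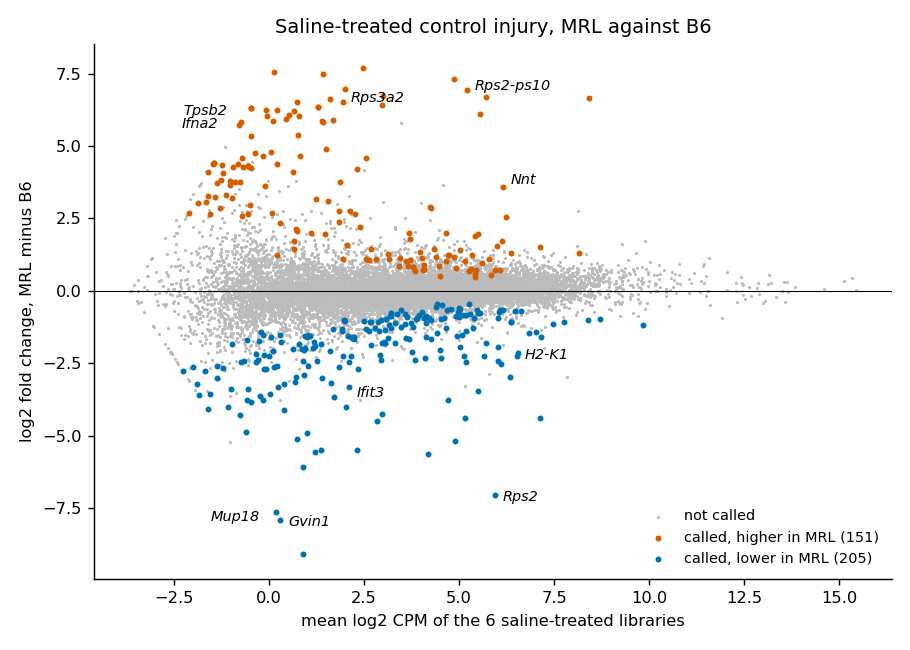
Log2 fold change (MRL minus B6) of each of the 14159 genes after saline-treated injury against its mean log2 CPM over the 6 libraries. Orange points are the 151 genes called higher and blue points the 205 called lower in MRL mice, and gray points were not called. Gvin1 and Mup18 lie lowest among the labelled genes and Rps2-ps10 highest.

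The clearest group of genes lower in MRL muscle was the interferon-induced one. Type I and type II interferons act through transcription factors on short DNA elements before their target genes, and the products of those genes restrict viruses and mark the state of immune and stromal cells. Of 55 listed interferon-induced genes, 53 were measured, and 16 were called lower and 1 higher in MRL mice (32.1% of the list, where 2.51% of all genes were called). Below 0 were 50 of the 53, with a median log2 fold change of -1.20 against 0.01 over all genes. In 38 of the 53 the strains did not overlap, where 15.2% of all genes did not.

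The element of type I interferon, the ISRE, was searched on both strands, as GAAA, any 2 bases and GAAA, in the 250 bases before the start of each gene, with overlapping matches counted. It lay in 426 of 13785 such windows (3.09%), in 22 of the 52 windows of interferon-induced genes (42.3%), in 8 of the 16 called lower and in 14 of the 35 not called. The element of type II interferon, searched as TTC, any 3 bases and GAA, lay in 6.6% of all windows and in 14 of the 52. Windows of 3 called genes with more than 1 ISRE match are shown to place the element, from GRCm39 and 5′ to 3′ on the strand of the gene, with the matches in capitals. Their positions are chr4:156285304-156285553 on the minus strand for Isg15 (3 matches, some overlapping), chr19:34560649-34560898 on the plus strand for Ifit3 (2 matches, read here as their reverse complement) and chr8:71990115-71990364 on the minus strand for Bst2 (2 overlapping matches).
Isg15: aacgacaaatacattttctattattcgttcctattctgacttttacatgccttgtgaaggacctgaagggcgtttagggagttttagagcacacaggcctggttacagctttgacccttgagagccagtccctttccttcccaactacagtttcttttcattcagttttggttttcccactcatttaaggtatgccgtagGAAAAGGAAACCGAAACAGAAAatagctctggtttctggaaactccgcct
Ifit3: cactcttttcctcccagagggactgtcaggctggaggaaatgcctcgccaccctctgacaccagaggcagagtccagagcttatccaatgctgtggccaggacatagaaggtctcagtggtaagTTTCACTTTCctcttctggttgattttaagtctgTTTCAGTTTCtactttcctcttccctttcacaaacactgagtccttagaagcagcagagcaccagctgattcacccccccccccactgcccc
Bst2: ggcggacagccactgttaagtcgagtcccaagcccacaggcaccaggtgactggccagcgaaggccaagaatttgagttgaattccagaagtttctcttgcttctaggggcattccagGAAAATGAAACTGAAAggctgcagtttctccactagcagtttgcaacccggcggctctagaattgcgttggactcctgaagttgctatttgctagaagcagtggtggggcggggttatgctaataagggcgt

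Isg15, a ubiquitin-like modifier, was at 2.07, 1.62 and 1.88 log2 CPM in the B6 libraries and at 0.34, -0.20 and -0.56 in the MRL libraries. Every MRL value lay below every B6 value, and the strains differed by -2.00 (standard error 0.44, adjusted p = 0.0132). Bst2, which tethers budding viruses to the cell surface, was at 4.62, 4.29 and 4.69 in B6 and 3.52, 2.54 and 2.50 in MRL mice, again without overlap (-1.68, standard error 0.38, adjusted p = 0.0179). Ifit3, a partner of the RNA-binding protein Ifit1, was at 3.98, 3.86 and 3.43 in B6 and 1.28, -0.84 and 0.85 in MRL mice (-3.33, standard error 0.54, adjusted p = 0.000723). Ifit3 has a near-identical copy, and summed with it the difference was -1.36. Isg15 was not called without replicate 1 of B6 (adjusted p = 0.0630) or replicate 2 (0.0553) or 3 (0.0921) of MRL mice. Bst2 was not called without replicate 1 (0.0692) or 3 (0.0818) of B6 or replicate 2 (0.113) or 3 (0.120) of MRL mice. The call of Ifit3 held without any of the 6 libraries, and was lost with a term for the first index in the fit (adjusted p = 0.0841).

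Among the regulators, Irf7, the transcription factor that amplifies interferon production, was at 4.41, 3.90 and 3.74 log2 CPM in B6 and 2.67, 1.59 and 1.19 in MRL mice. These values did not overlap (log2 fold change -2.20, standard error 0.52, adjusted p = 0.0221), and the call was lost without replicate 1 of B6 (adjusted p = 0.104) or replicate 2 (0.111) or 3 (0.159) of MRL mice. Stat2 and Irf9, which act at the ISRE, were not called and differed by -0.80 (adjusted p = 0.178) and -0.69 (0.231). Ifna2, one of the type I interferons themselves, had 0 counts in the 3 B6 libraries and stood at 2.42, 2.09 and 1.73 in MRL mice, which is at least 35.4-fold higher against a floor of 3 counts per library (adjusted p = 1.57e-07). Ifna2 thus had more counts in the strain whose interferon-induced genes were lower. It was also higher in uninjured MRL mice, by 5.48. Whether its reads came from related genes outside the matrix, or from alleles matched unequally to the B6 reference, was not tested.

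Gvin1, a very large interferon-inducible GTPase, showed the largest difference of the list. Its 3 B6 libraries were at 4.44, 4.37 and 3.95 log2 CPM and all 3 MRL libraries at 0 counts. That is at least 161-fold lower in MRL mice (adjusted p = 5.21e-08). Whether reads of an MRL allele match the B6 reference transcripts of Gvin1 was not tested. The other GTPases were lower by less. Gbp7 changed from 3.97, 4.43 and 3.86 in B6 to 3.43, 2.38 and 2.76 in MRL mice, the smallest called difference of the list at -1.23 (adjusted p = 0.00809), and was not called without replicate 2 of MRL mice (0.0785). Iigp1 differed by -1.81 (adjusted p = 0.0164) and Tgtp1 by -2.07 (adjusted p = 0.000491), or -1.46 for Tgtp1 summed with its copy.

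The antiviral effectors were lower as well. Rsad2, which makes a nucleotide that ends viral RNA chains, was at 3.50, 3.24 and 3.14 log2 CPM in B6 and 0.98, 0.91 and 1.21 in MRL mice (-2.26, standard error 0.50, adjusted p = 0.0138). Oas2 and Oasl2, of the 2'-5'-oligoadenylate synthetase family that senses double-stranded RNA, differed by -1.87 (adjusted p = 0.0256) and -1.80 (0.0181). Zbp1, a sensor of left-handed nucleic acids, differed by -1.98 (0.0108), Ifit1 by -1.76 (0.0418), Ifi35 by -1.64 (0.00323) and Trim30d by -3.56 (0.000663). Cxcl9, the interferon-gamma-induced chemokine that draws T cells, was at 2.92, 1.01 and 2.05 in B6 and -0.18, -1.60 and -1.87 in MRL mice (-3.21, standard error 0.66, adjusted p = 0.00751). Its 2 groups did not overlap, although the B6 libraries spread over almost 2 units. Ifit1 lost its call without any 1 of the libraries but replicate 1 of MRL mice. Without replicate 2 of MRL mice Rsad2 (0.0642), Oas2 (0.182), Oasl2 (0.153), Zbp1 (0.0956) and Iigp1 (0.138) were not called. Without replicate 1 of B6 the same held for Rsad2 (0.0636), Oas2 (0.0828), Oasl2 (0.0603), Iigp1 (0.0614) and Cxcl9 (0.0610), and without replicate 3 of B6 for Oas2 (0.0947), Oasl2 (0.0790) and Iigp1 (0.0618). Without replicate 3 of MRL mice Oas2 (0.0953), Iigp1 (0.0953) and Cxcl9 (0.0606) were not called.

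**Figure D2:**
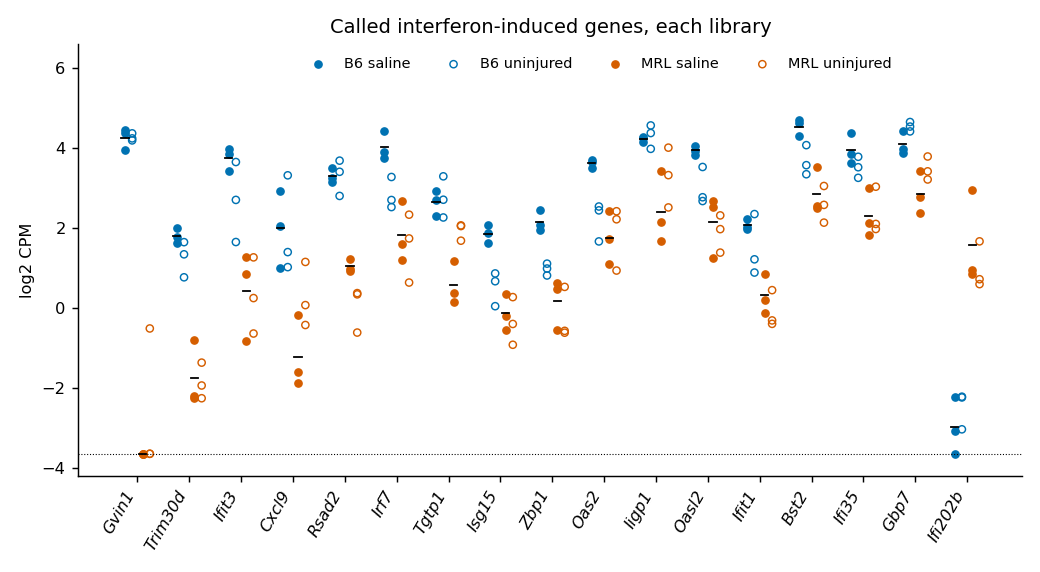
Log2 CPM of the 17 called interferon-induced genes in each library, ordered by log2 fold change, with filled points for saline-treated and open points for uninjured mice, blue for B6 and orange for MRL. Black bars are the means of the 3 saline-treated libraries and the dotted line is a count of 0. In 16 genes the saline-treated MRL points lie below the saline-treated B6 points, and in Ifi202b they lie above.

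The exception was Ifi202b, a cytosolic DNA-binding protein whose level is known to differ among inbred strains, at -3.09, -3.65 and -2.24 log2 CPM in B6 and 2.95, 0.85 and 0.95 in MRL mice. In 2 of the 3 B6 libraries it lay below the level of 3 counts, and the fitted log2 fold change of 4.58 (adjusted p = 0.000187) depends on the prior count. Summed over the 53 genes, the list stood at 683, 581 and 659 CPM in B6 and 470, 285 and 298 CPM in MRL mice. Its direction was the same in the other 3 strain comparisons, which share no library with this one. In each of them the first index also differed between the strains, and the variance of a gene came from the same fit. The median was -0.88 between uninjured mice, -0.70 after ECM and -0.99 after PE. All 16 genes called lower after saline were below 0 in each. Called lower there were 5, 3 and 6 of them, where 1.25%, 1.38% and 1.74% of all genes were. Of all genes called after saline, 65.7%, 71.1% and 67.1% were also called in these comparisons. The change of the strain difference from uninjured to saline-treated muscle was below 0 in 15 of the 16. By limma 0 were called, with a smallest adjusted p of 0.9995. The 16 were chosen by their saline difference, which is part of this change, so its direction is no finding.

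The number of interferon-induced genes called lower depended on the libraries and on the fit. It was 7 without replicate 1 of B6, 6 without replicate 2 of MRL and 9 without replicate 3 of MRL, with medians of -1.17, -0.85 and -1.08. Of all 14159 genes, 146, 131 and 127 were called lower in these fits. A fit of only the 6 saline-treated libraries called 4 lower, and library weights called 34, where 66 and 1119 of all genes were called lower. A term for the first index left 4 called lower and 0 higher, with a list median of -1.54, where 319 and 642 of all genes were. This term rests on single libraries and cannot measure the index apart from the second index pair. Summed markers of immune cells differed in both directions. The 8 macrophage markers measured of 9 summed to 317 to 360 CPM in B6 and 151 to 482 CPM in MRL mice, the 7 T cell markers of 9 to 4.93 to 10.1 against 2.67 to 5.39 CPM, and the 3 natural killer cell markers of 8 to 2.48 to 2.77 against 0.517 to 1.24 CPM. The 6 neutrophil markers of 9 summed to 2.18 to 4.65 CPM in B6 and 5.50 to 9.62 CPM in MRL mice. Among them Ltf stood at 0 to 0.343 CPM in the second index pair, which includes replicates 1 and 2 of B6. In the other libraries of the study it stood at 1.14 to 6.91 CPM, and its part in the strain difference of this sum was not tested. The 4 B and plasma cell markers of 9 summed to 28.2 to 59.1 against 48.7 to 68.4 CPM. Marker by marker, 6 of 8 macrophage (median -0.38) and 3 of 4 B and plasma cell markers (median -0.88) were below 0. The same held for all 7 T cell and all 3 natural killer cell markers, but for 1 of the 6 neutrophil markers (median 0.39). Of all genes 48.8% were below 0. None of the markers measured was at 0 in all libraries of a strain, and their part in the interferon result was not tested.

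Antigen presentation genes of the major histocompatibility complex on chromosome 17 differed in both directions. The class I molecules H2-K and H2-D show peptides from inside the cell to CD8+ T cells, and MRL mice are known to carry another haplotype of this complex than B6 mice. Of 27 class I and peptide loading genes measured, 4 were called lower and 1 higher (18.5%, where 2.51% of all genes were called), with a median of -0.51. H2-D1 was at 8.06, 7.76 and 7.64 log2 CPM in B6 and 5.21, 4.45 and 4.84 in MRL mice (-2.99, standard error 0.42, adjusted p = 0.000112). H2-K1 was at 7.92, 7.58 and 7.45 in B6 and 6.32, 5.01 and 4.88 in MRL mice (-2.24, standard error 0.44, adjusted p = 0.00483). Both sets of values were separate by more than 1 unit. The nonclassical H2-Q6 and H2-Q7 differed by -5.51 and -4.51 (adjusted p = 9.63e-08 and 6.02e-07), and H2-Q1 by 3.64 (0.00123). These genes resemble each other. Summed over near-identical copies the difference was -1.92 for H2-K1, -2.41 for H2-D1 and -1.90 for the family of H2-Q6 and H2-Q7. The authors' transcripts came from the B6 reference, and whether reads of MRL alleles of these genes were matched as often was not tested.

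Of 11 class II presentation genes, H2-Ea-ps and H2-DMb1 were called (18.2%, where 2.51% of all genes were). H2-Ea-ps, the alpha chain of the E molecule that B6 mice are known to lack, was at -2.38, -3.65 and -1.35 log2 CPM in B6 and 5.27, 2.75 and 3.25 in MRL mice (6.21, standard error 0.64, adjusted p = 1.91e-06). H2-DMb1, which helps to load class II molecules, was at 2.96, 2.50 and 3.20 in B6 and 0.81, -0.11 and -1.04 in MRL mice (-3.00, standard error 0.71, adjusted p = 0.0221). It lost its call without replicate 1 (0.0760) or 3 (0.102) of B6 or replicate 2 (0.0814) or 3 (0.164) of MRL mice, and summed with its copy it differed by -1.94. H2-D1, H2-K1, H2-Q6, H2-Q7, H2-Q1, H2-Ea-ps and H2-DMb1 were also called between uninjured mice, in the same direction, with log2 fold changes of -3.15, -2.04, -5.37, -3.86, 3.17, 4.48 and -2.87.

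Part of the mast cell genes were higher in MRL muscle after saline, and Tpsb2 among them was also called higher without injury. Mast cells sit near vessels and nerves of muscle and store proteases in granules. Of 10 listed markers 8 were measured, and 3 were called higher and 0 lower (37.5%, where 2.51% of all genes were called). All 8 were above 0, where 51.2% of all genes were, with a median of 1.37 against 0.01. In 7 of them the strains did not overlap, where 15.2% of all genes did not. Summed, the 8 stood at 5.97, 10.5 and 9.47 CPM in B6 and 33.6, 26.5 and 24.4 CPM in MRL mice.

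Tpsb2, a tryptase, had 0 counts in the 3 B6 libraries and stood at 2.40, 2.23 and 1.86 log2 CPM in MRL mice, at least 37.4-fold higher (adjusted p = 4.94e-09), and Tpsab1, of which B6 mice are known to carry a defective allele, differed by 4.39 (adjusted p = 0.000514). Between uninjured mice they differed by 5.33 (1.66e-08) and 2.62 (0.0507). Cpa3, the mast cell carboxypeptidase, was at -0.19, 0.74 and -0.21 in B6 and 2.27, 1.89 and 2.16 in MRL mice (1.99, standard error 0.50, adjusted p = 0.0335). In uninjured muscle Cpa3 was at 2.04, 1.35 and 2.33 in B6 and 1.75, 1.47 and 0.41 in MRL mice (-0.70, adjusted p = 0.707). Both uninjured groups thus overlapped, near the level of saline-treated MRL mice. After ECM and PE, Cpa3 was called higher in MRL mice (1.90 and 3.17, adjusted p = 0.0430 and 0.000438). The saline call of Cpa3 was lost without replicate 1 (0.126) or 3 (0.149) of B6 or without replicate 1 (0.0854), 2 (0.0819) or 3 (0.129) of MRL mice. The chymase Mcpt4 differed by 1.33 (adjusted p = 0.198), Cma1 by 1.31 (0.664) and Kit, the stem cell factor receptor, by 1.17 (0.491). These 3 were chosen after their values were seen. Without any 1 library the count of called mast cell markers was 2 or 3 and all 8 stayed above 0. The list's median was -0.64 between uninjured mice, 1.79 after ECM and 2.86 after PE, with 4 and 6 markers called higher after ECM and PE, where 1.27% and 1.6% of all genes were.

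Other leukocyte markers gave few calls. Of the 9 eosinophil markers listed, Ear2 and Siglecf were measured. Ear2, an eosinophil ribonuclease also made by some macrophages, was at 0.60, 1.64 and 0.67 log2 CPM in B6 and -0.05, -1.32 and -2.39 in MRL mice (-2.22, standard error 0.52, adjusted p = 0.0228). It lost its call without replicate 2 of B6 (0.0718) or replicate 2 (0.0923) or 3 (0.188) of MRL mice. All 7 T cell markers measured were below 0, with a median of -0.92 and 0 called. Cd3d, a subunit of the T cell receptor complex, differed by -1.68 (adjusted p = 0.0772) and Cd3e by -1.81 (0.205). Between uninjured mice Cd3d and Cd3e were called lower (-1.89 and -3.29) and Cd4, the coreceptor of helper T cells, was called higher in MRL mice (1.66). The natural killer receptor Klrk1 differed by -1.88 (0.0821).

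**Figure D3:**
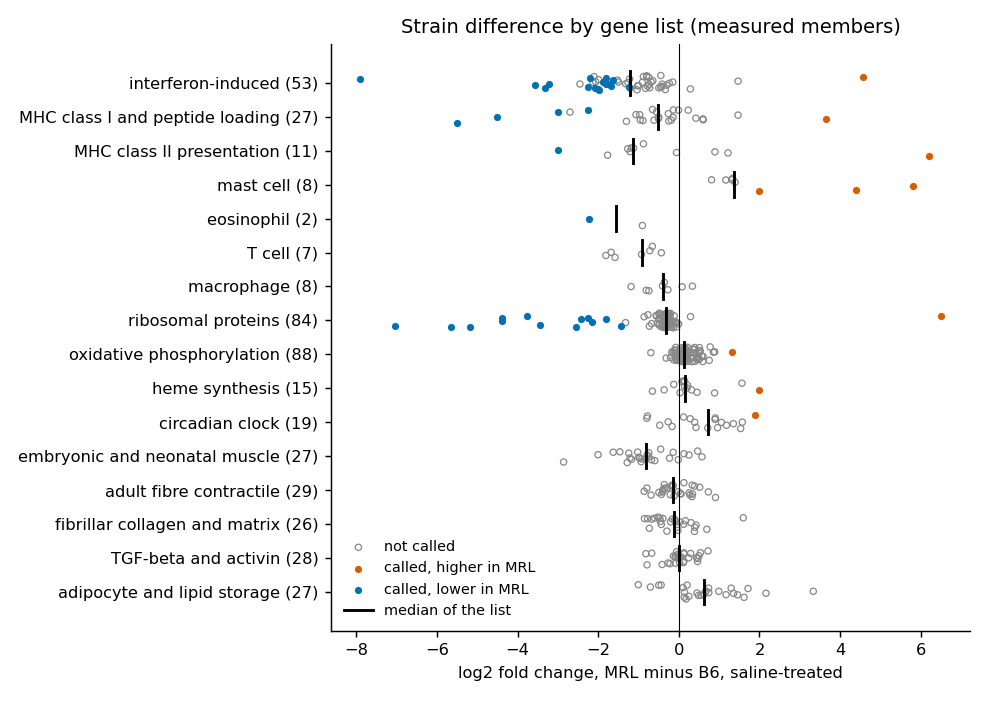
Log2 fold change (MRL minus B6) of each measured member of 16 gene lists after saline-treated injury, with the number of members in parentheses. Filled orange and blue points were called higher and lower in MRL mice, open points were not called, and black bars are list medians. The interferon-induced list is centred at -1.20 and the mast cell list at 1.37.

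Lists of muscle repair, scar and fat gave 0 calls between the strains. Of 27 embryonic and neonatal muscle genes, 23 were below 0, with a median of -0.82. Summed, they stood at 4094, 1153 and 4965 CPM in B6 and 2368, 796 and 1200 CPM in MRL mice, so that replicate 2 of B6 lay below replicate 1 of MRL. Myh8, the neonatal myosin heavy chain, was at 9.24, 3.16 and 9.22 log2 CPM in B6 and 6.56, 3.14 and 3.35 in MRL mice (-2.86, standard error 1.23, adjusted p = 0.318). Its strains overlapped, and the range within B6 was larger than the difference between means. Tnnt2, the cardiac troponin T of immature fibres, differed by -2.00 (0.394) and Chrna1, a subunit of the acetylcholine receptor, by -1.63 (0.439). Without replicate 2 of B6, 3 of the 27 were called lower, where 345 of all 14159 genes were, with a list median of -2.20. Without replicate 1 or 3 of B6 the median was -0.29 or -0.31.

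The 26 genes of fibrillar collagen and matrix had a median of -0.13, which was above 0 without replicate 3 of B6 (0.11), replicate 2 of MRL (0.09) or replicate 3 of MRL (0.04). Col1a1, the main collagen of scar, was at 10.01, 8.81 and 10.15 log2 CPM in B6 and 10.44, 7.92 and 8.05 in MRL mice (-0.85, adjusted p = 0.675), with overlapping groups. Of 27 adipocyte and lipid storage genes 23 were above 0, with a median of 0.62 and 0 called. Without replicate 3 of B6 the median was 0.20, and without replicate 1 of MRL 0.32. The median of that list was -0.80 between uninjured mice and 2.57 after PE. Neither the 28 genes of transforming growth factor beta and activin signalling (median 0.00), the 20 of mechanosensing (0.05), the 25 of proliferation (-0.11), the 24 of complement (-0.29) nor the 20 of lipid-associated macrophages (0.36) had a called member. These medians rested on single libraries, since that of proliferation was 0.25 without replicate 3 of B6 and 0.12 without replicate 2 of MRL, and that of lipid-associated macrophages 0.09 without replicate 1 of MRL. A list of 19 genes drawn up here from the study, which chose them on these samples and discusses some of them for PE rather than saline, had 0 called and a median of -0.02, and is not independent evidence. The red cell gene Hba-a1 differed by 2.76 (adjusted p = 0.0862), and the 6 red cell genes measured of 9 summed to 180 to 1493 CPM in B6 and 567 to 1983 CPM in MRL mice.

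Single metabolic genes were called. Nnt, the mitochondrial transhydrogenase that makes NADPH and of which C57BL/6J mice are known to carry a deletion, was at 4.32, 5.44 and 3.32 log2 CPM in B6 and 6.55, 8.92 and 8.35 in MRL mice (3.58, standard error 0.71, adjusted p = 0.00558). Nnt, H2-Ea-ps, Ifi202b, Tpsab1 and Tpsb2 were the 5 called, all higher in MRL mice, of 6 measured genes listed as known to vary among strains. The call of Nnt was lost without replicate 3 of B6 (0.0505) or replicate 2 of MRL mice (0.0522). Sdhc, a membrane subunit of succinate dehydrogenase, was at 7.24, 7.80 and 7.49 in B6 and 8.30, 9.14 and 9.02 in MRL mice (1.31, adjusted p = 0.0274) and lost its call without replicate 1 (0.123) or 3 (0.0901) of B6 or replicate 2 (0.165) or 3 (0.147) of MRL mice. It was the called member of 88 oxidative phosphorylation genes, whose median was 0.14 with 68 above 0 (51.2% of all genes were above 0). With library weights 41 of the 88 were called higher, where 1184 of all 14159 genes were, with a list median of 0.52. Without replicate 1 of B6 or replicate 2 of MRL that median was 0.00 or 0.01. Alad was the called member of 15 heme synthesis genes (median 0.14), and its call held without any of the 6 libraries. Gstp2, a glutathione transferase, differed by -2.26 (adjusted p = 5.77e-06), or -0.69 summed with its copy.

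Per1, a negative limb gene of the circadian clock, was at 4.25, 4.24 and 4.90 log2 CPM in B6 and 6.17, 6.44 and 6.45 in MRL mice (1.89, standard error 0.39, adjusted p = 0.00714). It was the called member of 19 clock genes, of which 14 were above 0, with a median of 0.72, or 0.30 without replicate 3 of B6. The list had 4 called higher and 1 lower between uninjured mice (median 0.56), 0 called after ECM (0.22) and 1 called higher after PE (0.12). Per3 differed by 1.18 (adjusted p = 0.119) and Dbp, an output gene of the clock, by 1.58 (0.173). Between uninjured mice Per1, Per3 and Dbp differed by 1.85, 1.47 and 3.12, after ECM by 0.12, 0.36 and 0.58, and after PE by 0.26, 0.49 and 0.12.

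Further genes among the 12 largest calls in each direction belonged to none of these lists. Hal, the first enzyme of histidine breakdown, was at -0.23, 0.13 and 0.93 log2 CPM in B6 and 5.90, 4.21 and 4.43 in MRL mice (4.58, standard error 0.72, adjusted p = 0.00048). B4galnt2, a glycosyltransferase of surface glycans, was at -1.70, -1.65 and -1.21 in B6 and 2.86, 3.15 and 3.42 in MRL mice (4.66, adjusted p = 5.26e-07). Both genes showed no overlap. Opn1mw, a cone opsin, differed by 4.66 (0.000292) and Fam184b by 3.61 (0.00341). Among the lower genes, Rab6b, a small GTPase of Golgi traffic, was at 3.62, 4.18 and 3.97 in B6 and -1.96, -0.87 and -3.65 in MRL mice (-6.08, adjusted p = 2.12e-07). Eps8l1, an actin regulator, differed by -5.12 (0.000381). Mup18, a major urinary protein gene, had 0 counts in all MRL libraries and 5.18, 3.75 and 3.05 in B6, at least 162-fold lower in MRL mice. Mup18 and Mup11 (-5.56) belong to a family of 11 near-identical genes here, whose sum differed by -2.86 with overlapping groups. Other single values are uncertain because of a copy. Summed with it, Amd2 went from 3.76 to 0.01, Ceacam2 from 3.76 to -0.28 and Rnaset2b from -5.50 to 0.64.

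Duplicated genes and pseudogenes were frequent among the calls. A copy is a transcript of another measured gene that aligned over 50% or more of the shorter one with 90% or more identical bases. Such a copy was found for 133 of the 356 called genes (37.4%) and for 4.72% of all genes. Reads from genes with a copy can be assigned to the wrong member. Genes outside the matrix were not searched, so a gene counted as without a copy can have one there. Of 84 ribosomal protein genes measured, 13 were called lower and 1 higher (16.7%, where 2.51% of all genes were called), and all 14 had a copy. Rps18, a small subunit protein, was at 7.23, 7.13 and 8.07 log2 CPM in B6 and 2.49, 2.19 and 2.20 in MRL mice (-5.18, adjusted p = 1.45e-08). Its near-identical copy Gm10260, annotated on chromosome 13 from 97896580 to 97897140, was at -1.06, -1.40 and 1.77 in B6 and 6.23, 6.22 and 6.10 in MRL mice (6.41, adjusted p = 3.47e-08). Gene and copy were thus each separate between strains, in opposite directions.

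The coding sequence of Rps18 and the matching stretch of Gm10260 differ at 4 of 456 bases (99.1% identity). Bases 282 to 371 of the coding sequence, from GRCm39, hold 2 of these differences, shown in capitals, to let the size of the difference between gene and copy be seen.
Rps18: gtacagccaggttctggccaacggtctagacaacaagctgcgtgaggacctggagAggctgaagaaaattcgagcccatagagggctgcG
Gm10260: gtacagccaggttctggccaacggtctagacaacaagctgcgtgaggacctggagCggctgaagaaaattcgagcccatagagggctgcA

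On the linear scale Rps18 stood at a mean of 186 CPM in B6 and 4.84 in MRL mice and Gm10260 at 1.34 and 72.7 CPM, so that the pair summed to 187 and 77.6 CPM, a log2 difference of -1.21, or -1.13 with a further copy. Rps2 went from 714 to 5.42 CPM and Rps2-ps10 from 5.81 to 410 CPM, with the pair at 720 and 415 CPM (-0.78). Rpl3 went from 176 to 7.91 CPM and Rpl3-ps1 from 2.01 to 91.3 CPM, with the pair at 178 and 99.2 CPM (-0.87). The coding sequences of Rpl3 and Rpl3-ps1 differ at 2 of 1209 bases. Of the other called ribosomal protein genes, Rpl29 differed by -5.65, Rplp0 by -4.39 and Rps3a2 by 6.51. Over all 133 called genes with a copy, the median absolute difference (log2) fell from 3.77 in the single gene to 0.84 in the sum with its copies. The summed value was under 1 in 76, and the direction turned in 59. Of 62 called pseudogenes with a coding copy, 52 were higher in MRL mice. Their 49 coding copies had 21 called lower and 2 called higher.

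**Figure D4:**
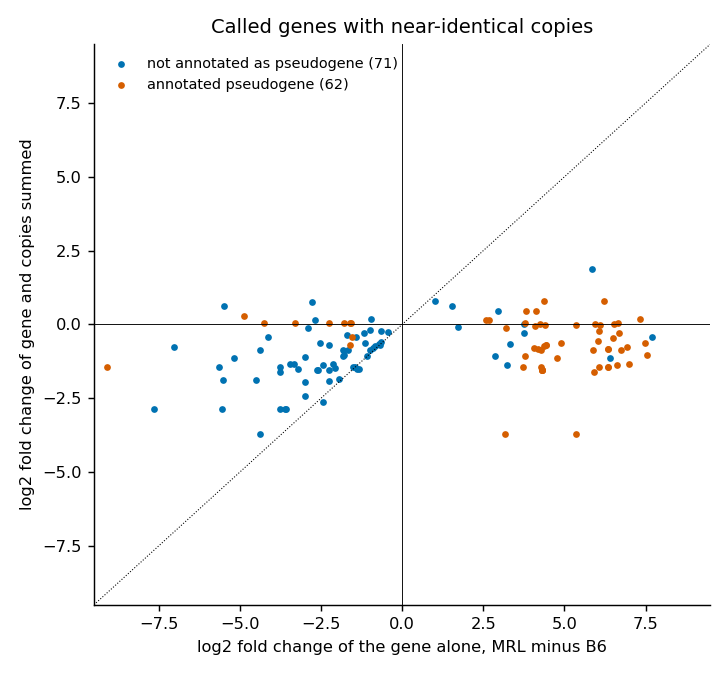
Log2 fold change (MRL minus B6) of the 133 called genes with a near-identical copy, for the gene alone on the horizontal axis and for the summed CPM of gene and copies on the vertical axis. Orange points are the 62 annotated pseudogenes and blue points the other 71, and the dotted line marks equal values. Most points lie nearer to 0 on the vertical axis, with a median absolute value of 0.84 against 3.77.

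The authors' transcripts came from the B6 reference. Whether reads of MRL alleles were matched to them as often as B6 reads was not tested. How these reads were divided between gene and copy was not tested either. The 52 ribosomal protein genes without a copy had a median log2 fold change of -0.29. Of the 84, 82 were below 0, where 48.8% of all genes were. Without replicate 3 of B6, 68 were below 0, with a median of -0.14. The 223 called genes without a copy were 87 higher and 136 lower, with a median absolute log2 fold change of 1.55.

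Some called genes were neighbours on the genome. Joining called genes of known position less than 500 kb apart gave 9 stretches with at least 4 called genes, which held 48 of the 339 called genes with a position. The stretches start and end at called genes, so the share called within them is high by construction, and no comparison with other stretches was made. Their genes below were chosen after the values were seen. On chromosome 1 from 173296051 to 173810414, in the family of interferon-inducible nuclear proteins, 7 of 11 tested genes were called. Mnda (-2.63, adjusted p = 0.00125), Pyhin1 (-2.70, 0.0222), Pydc3 (-1.41, 0.0169) and Pydc4 (-1.33, 0.0149) were lower in MRL mice, beside Ifi202b, which was higher. On chromosome 7 from 103893663 to 104157107, in a cluster of tripartite motif genes that restrict retroviruses, 5 of 8 were called. Trim12a (-4.90, adjusted p = 7.96e-08), Trim5 (-2.70, 0.000858), Trim34a (-1.84, 0.00563) and Trim30d were lower and Trim34b (2.87, 0.00896) was higher. Trim34a and Trim34b are near-identical copies and summed to -1.06, Trim5 with its copy to 0.14, Mnda with its copies to -1.55 and the family of Pydc3 and Pydc4 to -1.50. Pyhin1, Pydc3 and Pydc4 each lost the call without any 1 of 3 libraries, replicate 3 of MRL mice among them, and Trim34b without that replicate. Another stretch on chromosome 4 from 41755186 to 43427088 held 6 called genes of 22, among them Il11ra2 (3.31, 0.0114) and Vcp (-0.97, 0.000471), which summed with a copy to -0.66 and 0.19. Il11ra2 lost its call without replicate 3 of B6 (0.0770) or replicate 1 of MRL mice (0.0513).

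Most called differences were also seen without injury. The strain comparison of uninjured muscle gave 368 calls (2.6%), that after ECM 376 (2.66%) and that after PE 474 (3.35%), and none of these comparisons shares a library with the saline one. They took the variance of each gene from the same fit as the saline comparison, so the calls were not independent. The first index differed between the strains in each of them. The 234 genes called after saline and in uninjured mice were 65.7% of the saline calls and 63.6% of the uninjured calls. The overlap with ECM was 253 genes (71.1% of the saline and 67.3% of the ECM calls), and with PE 239 genes (67.1% and 50.4%), all in the same direction. All 4 comparisons called 178 of them, and 57 were called after saline alone. The test of the change from uninjured to saline-treated muscle called 0 genes by limma, with 570 at an unadjusted p under 0.05, and 8 without replicate 3 of saline-treated B6 mice.

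**Figure D5:**
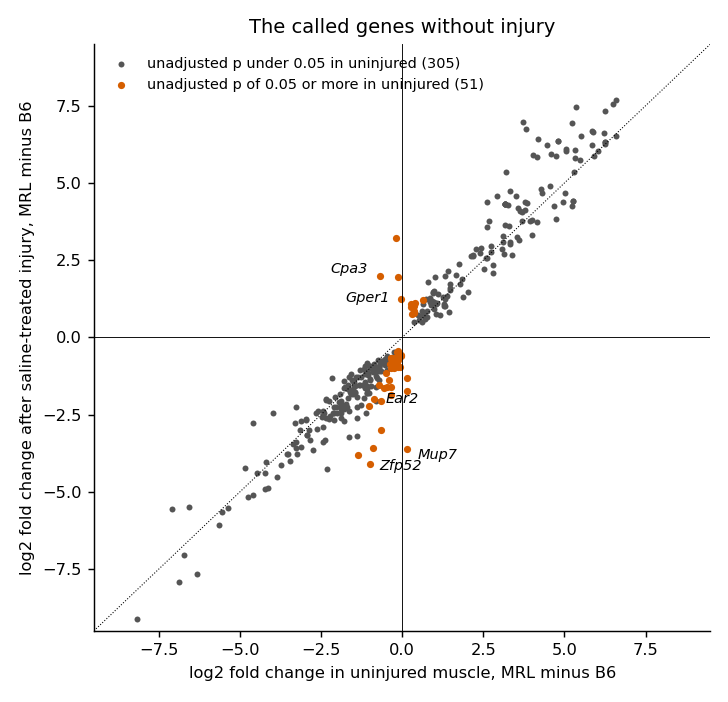
Log2 fold change (MRL minus B6) of the 356 genes called after saline-treated injury, against the same difference in uninjured muscle, with equal values on the dotted line. Orange points are the 51 genes with an unadjusted p of 0.05 or more in uninjured muscle and gray points the others, some of the orange ones are named. Genes were chosen by the vertical axis, so values nearer to 0 on the horizontal axis are no finding.

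Of the 356 genes, 51 had an unadjusted p of 0.05 or more between uninjured mice, 14 higher and 37 lower after saline, and 20 of them were also called after ECM or PE. For none of them was the strain difference shown to differ between injured and uninjured muscle. Gper1, a membrane oestrogen receptor, was at -0.28, -0.51 and -0.47 log2 CPM in B6 and 0.89, 0.61 and 0.95 in MRL mice (1.24, adjusted p = 0.0348), and differed by -0.04 without injury. Rgs4, which shortens signals of G protein-coupled receptors, was at 2.58, 2.90 and 3.14 in B6 and 3.93, 3.95 and 4.10 in MRL mice (1.12, adjusted p = 0.00508) and by 0.39 without injury. Rcan3, a calcineurin regulator, differed by 1.10 (adjusted p = 0.00702), Ttc28 by 1.22 (0.0486) and Adcy1, an adenylyl cyclase, by 1.96 (0.0453). Gper1, Ttc28 and Adcy1 lost their calls without replicate 1 or 3 of B6 or without any 1 MRL library, Gper1 also without replicate 2 of B6, and Rcan3 without replicate 2 of MRL mice.

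Among the lower ones, Pnp2, a purine nucleoside phosphorylase, was at 0.08, 0.65 and -0.32 log2 CPM in B6 and -1.89, -3.03 and -3.65 in MRL mice (-2.99, adjusted p = 0.00132), or -1.11 summed with its copy. Zfp52, a zinc finger gene, had 0 counts in the 3 saline-treated MRL libraries and -0.48, 0.09 and 1.72 in B6, at least 13.5-fold lower in MRL mice. In uninjured muscle it had 0 counts in 2 of the 3 B6 libraries and in all 3 MRL libraries. Its adjusted p of 0.0446 was lost without any 1 of the 6 libraries. Dedd2, a death effector protein, was at 0.46, 1.64 and 2.24 in B6 and 0.18, -3.65 and -3.65 in MRL mice (-3.82, 0.0176). Mup7 (-3.62, 0.0363) and Mup15 (-3.57, 0.014) belong to the urinary protein family above. Dedd2 lost its call without replicate 3 of B6 or replicate 2 or 3 of MRL mice, Mup7 without any 1 of these or replicate 1 of B6, and Mup15 without replicate 1 or 3 of B6 or replicate 2 of MRL mice.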

How the data were processed

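RNA from whole quadriceps was sequenced in 24 libraries. The authors assigned reads to Ensembl GRCm39 transcripts with kallisto, summed them to genes with tximport, kept genes over 1 CPM in at least 3 libraries, and deposited log2 CPM values scaled by the trimmed mean of M-values with a prior count of 2. From that prior, the mean effective library size was 25149678. The counts behind each library's values were not recovered from the matrix, and the read totals in the study's supplement were not used here. The study's kallisto commands set no strand option, so reads of a gene and of an antisense or overlapping partner cannot be told apart.

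The deposited log2 values were fitted with limma 3.58.1 (R 4.3.3; trended variance, 1 coefficient per group, 24 libraries), and p-values were adjusted by Benjamini-Hochberg over 14159 genes. 1 row without a symbol was left out. Exact permutation of 3 against 3 libraries cannot go below p = 0.1, so single-gene permutation tests were not used. The fit was tested on simulated data with 200 of the 14159 genes changed and noise that was independent between genes. It called 88% of log2 changes of 3 and 61% of changes of 1.5, with 11 false calls. With no gene changed it called 0. Copies were found with BLAST 2.17.0 among GENCODE transcripts (GRCm39), and symbols matched 13126 current and 661 older names, with 372 unmatched. Sequencing indexes came from the study's supplement. Alternatives were other scalings, filters, weights, library sets and index terms, and leaving out each library.

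Genes named were the 12 largest non-overlapping calls in each direction, called members of each list (otherwise up to 3 of the largest differences), up to 6 in each direction called after injury but with an uninjured p of 0.05 or more, up to 6 opposite pairs of copies, and the strain-variant and study lists. Not all were printed. Stat2, Irf9, the natural killer, T cell and clock genes beyond this, and the genes of the chromosome stretches were chosen after their values were seen. The members, gene lists and tests were chosen with earlier results of these data known.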

Additional observations from a re-analysis of the deposited data

How the results depend on the processing

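The 356 calls after saline became 216 after genes averaging under 1 log2 CPM were dropped, 152 with only the 6 saline-treated libraries in the fit and 2303 with library weights, and ranged from 230 (without replicate 3 of MRL) to 613 (without replicate 2 of B6) when single libraries were left out. Alternatives chosen after seeing the data were terms for the sequencing index and leaving out the 2 libraries of the second index pair. They gave 961 calls (642 higher and 319 lower) with the first index, 318 with the second and 1818 (1105 higher and 713 lower) without those libraries, which leaves 1 B6 library that is assumed to vary like the libraries of the other groups. The change from uninjured to saline-treated muscle had 0 calls, or 20 with weights, and from 0 to 8 when single libraries were left out, with 8 without replicate 3 of saline-treated B6 mice. The 368 calls in uninjured muscle became 223 with the filter, 878 with weights, and 224 (without replicate 3 of MRL) to 285 when single libraries were left out. For called genes with a copy the median absolute log2 fold change of 3.77 became 0.84 summed over copies. The causes of these changes were not tested. The filter left fewer genes to test, and the smaller fits held fewer samples.

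Replicate numbers are not stated to pair animals, and the residuals of same-numbered saline-treated libraries correlated at 0.23, 0.22 and -0.22, so the numbers were not taken as pairs. With a replicate block 323 genes were called after saline, 0 for the change and 337 in uninjured muscle. Scaling to equal totals moved the median of all genes from 0.01 to -0.10. Of 74 named called genes, 30 kept their call under all 18 alternatives that could test them and 0 turned direction. The alternatives that lost the most were the first index as a term (33 genes) and the fit of 6 libraries (33 genes). Among the genes lost with the first index were Ifit3, H2-K1, H2-Q1, Per1, Hal, Ifi202b and Tpsab1. The first index varied only within the saline-treated B6 and PE-treated MRL groups, where it coincided with the second index pair. Its term therefore rests on single libraries and cannot measure the index by itself, so these losses say nothing on the index. Values under 3 counts per library are within counting error.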
